A study of Mus musculus with 3 samples.

Results

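Cluster 0 of the deposited clustering held 172 of the 592 nuclei that the authors annotated as neurons, out of 603 nuclei in all. Its members were taken by the deposited labels alone, the broad class of neuron together with cluster number 0, and 4 further nuclei with number 0 that the authors did not class as neurons were left out. The nuclei came from lateral habenula dissected from mothers, virgin females and virgin males. They were sorted by KASH-GFP, in which a KASH domain tethers the fluorescent protein to the outside of the nucleus. The submitters label the sorted cells as neurons of the bed nucleus of the stria terminalis and lateral habenula, and the sources used here do not give how the fluorescent protein reached them, nor strain or age. All nuclei of a group came from 3 mice, pooled into 1 library, so no difference between groups has a replicate check, and no p-value is given. Mothers gave 47 of the cluster 0 nuclei, virgin females 61 and virgin males 64, and 0 cell barcodes were shared between libraries.

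The lateral habenula is an epithalamic nucleus of mostly glutamatergic neurons, known for its part in aversion and in the control of monoamine neurons. It lies against the medial habenula and above thalamic nuclei such as the paraventricular thalamus, whose neurons are also glutamatergic, so dissected tissue can hold cells of each. Neurons of these nuclei are told apart mainly by transcription factors, receptors and adhesion genes.

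Cluster 0 took 23.4% of the neurons in mothers (exact 95% Clopper-Pearson interval 17.7% to 29.9%), 32.6% in virgin females (26.0% to 39.8%) and 31.4% in virgin males (25.1% to 38.2%). The intervals overlap, and like all intervals here they cover counting error only. Its nuclei held 663885, 873414 and 626481 unique molecular identifiers (UMIs, each a counted transcript) in these libraries. The median nucleus had 13746, 12882 and 9416.5 UMIs, which was shallower in virgin males. Each library as a whole held 2126642 to 2790062 UMIs. A level in CPM is the UMI sum of a gene divided by that of all genes in the same nuclei, times 1000000. Xist, the noncoding RNA of the silenced X chromosome, gave 421, 477 and 0 UMIs in cluster 0 of mothers, virgin females and virgin males, and the Y-linked gene Uty gave 0, 0 and 79, so the libraries carried the sex of their labels.

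All 7 genes given as markers of the cluster were higher in it than in the other 4 neuronal clusters together, in each of the 3 libraries. The authors' clusters were built from these same genes, so what follows against other clusters is a description without a test. Col12a1, which encodes a fibril-associated collagen, stood at 159.7, 156 and 134 CPM in the libraries of mothers, virgin females and virgin males, against 2.47, 2.71 and 3.34 CPM in the other neurons. C1ql3, a secreted C1q-like protein that organises synapses, stood at 262, 254 and 415 CPM against 14.8, 6.50 and 3.34. These levels did not overlap between cluster 0 and the rest, and C1ql3 was highest in virgin males. As mean log2 ratios of cluster 0 to other neurons within libraries, Col12a1 reached 5.60 ± 0.36 (SD, n = 3 libraries) and C1ql3 5.39 ± 1.35. The wider spread of C1ql3 came with its own low levels in other neurons, where cluster 2 and cluster 4 held it at 16.9 and 16.7 CPM and cluster 3 at 0.678. Of the 13 UMIs in cluster 4, 12 came from mothers (29.7 CPM), 0 from virgin females and 1 from virgin males (5.51 CPM).

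Fam20a, a secretory pathway pseudokinase that activates its relative Fam20c, stood at 84.4, 112 and 102 CPM in mothers, virgin females and virgin males, against 1.48, 3.25 and 3.34 in other neurons. Fam20c itself was at 40.7, 44.7 and 19.2 CPM against 67.1, 56.4 and 70.8. Slc30a3, the transporter that loads zinc into synaptic vesicles, gave 43.7, 53.8 and 73.4 CPM against 1.97, 0.542 and 2.005. Itga8, an integrin alpha chain, was at 101, 66.4 and 101 CPM against 1.97, 4.34 and 4.01. Levels of these genes in cluster 0 lay above those of every other cluster in every library. Sulf1, an enzyme that trims sulfate groups from heparan sulfate outside the cell, stood at 164, 127 and 252 CPM against 9.37, 8.13 and 23.4. Nptxr, the neuronal pentraxin receptor, was at 304, 318 and 449 CPM against 35.5, 39.0 and 40.1, the smallest ratio of the 7 (3.20 ± 0.24 on the log2 scale, SD, n = 3 libraries). Pooled over libraries, the folds over the next highest cluster ran from 7.59 for Nptxr to 29.4 for Col12a1.

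**Figure D1:**
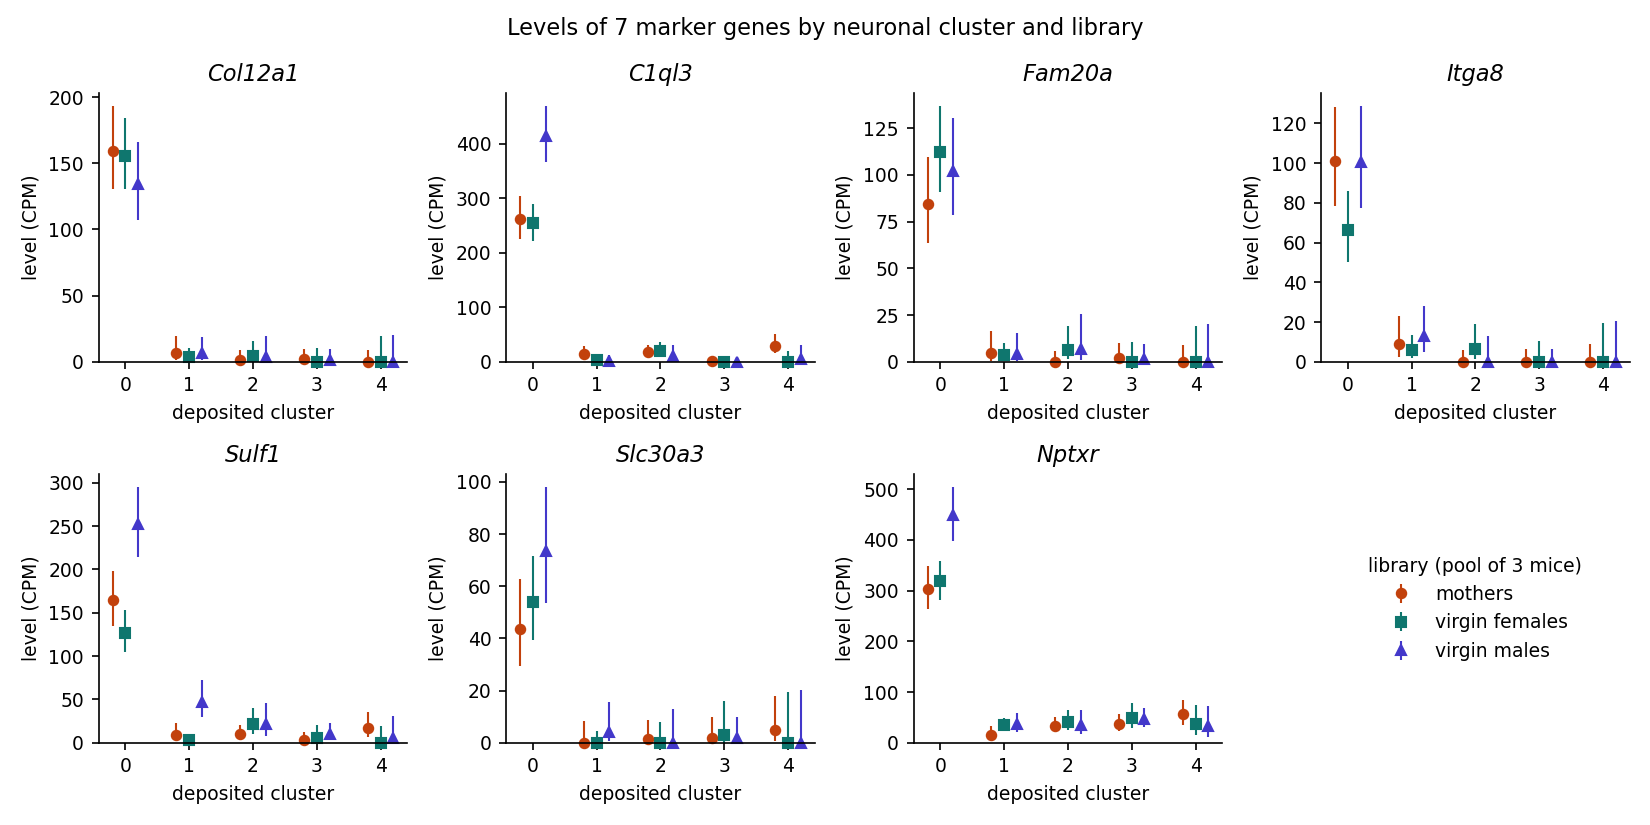
Level of each of the 7 marker genes (CPM, linear axis from 0) in the 5 deposited neuronal clusters. Each symbol is 1 library and bars are exact 95% Poisson intervals of the UMI sum, so they show counting error only. Every cluster 0 value lies above all values of the other clusters, and the virgin male library stands highest for C1ql3, Sulf1, Slc30a3 and Nptxr.

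On GRCm38 with GENCODE vM21, Col12a1 spans 79598991 to 79718831 on chromosome 9, Fam20a 109669749 to 109722279 on chromosome 11, Nptxr 79786351 to 79804766 on chromosome 15 and Slc30a3 31086106 to 31108237 on chromosome 5, all on the minus strand. C1ql3 (13003457 to 13011806) and Itga8 (12106632 to 12301922) both lie on the minus strand of chromosome 2, and Sulf1 (12692277 to 12861192) lies on the plus strand of chromosome 1. Each is annotated as protein coding, and UMIs were counted per gene, with no split between exons and introns in the table. The sources used here do not say whether intronic reads were counted.

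RefSeq start sites on GRCm38.p6 were at hand for 4 of the 7 markers, C1ql3, Fam20a, Itga8 and Slc30a3. The 250 bases before the start are shown for Itga8 and for the first start of Slc30a3, the markers whose windows lie wholly upstream of the annotated gene. CG dinucleotides are in capitals, and both sequences read 5′ to 3′ on the minus strand.
Itga8, chr2:12301945-12302194: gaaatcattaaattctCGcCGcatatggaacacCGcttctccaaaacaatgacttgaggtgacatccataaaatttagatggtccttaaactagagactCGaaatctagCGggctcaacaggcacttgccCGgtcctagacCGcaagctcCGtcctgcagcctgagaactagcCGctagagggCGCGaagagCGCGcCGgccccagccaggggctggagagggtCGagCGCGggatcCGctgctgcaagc
Slc30a3, chr5:31108245-31108494: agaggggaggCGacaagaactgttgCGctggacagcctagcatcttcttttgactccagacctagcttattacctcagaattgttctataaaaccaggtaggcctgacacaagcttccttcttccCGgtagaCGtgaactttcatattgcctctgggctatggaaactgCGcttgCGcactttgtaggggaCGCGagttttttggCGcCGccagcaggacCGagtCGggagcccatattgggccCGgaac
Itga8 held 18 CG dinucleotides in this window, Slc30a3 13 before its first start and 11 before its second, Fam20a 10 and C1ql3 23, against a median of 6 over 32851 RefSeq starts. The letters TAATTA (a homeodomain core), TGTTTAC (a forkhead motif) and TGANTCA (the AP-1 motif), searched on both strands, occur in 4.84%, 3.17% and 6.75% of all such windows. None of them occurred in the windows of the 4 markers.

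Single nuclei of cluster 0 held several of the markers together. At least 3 of the 7 had a UMI in 162 of 172 nuclei (94.2%), against 12 of 420 other neurons (2.86%), and at least 4 in 128 and 4. The median sum of the 7 was 12.9 UMIs per 10000 in cluster 0 and 0 in the other clusters, where the median depth was 11322.5 UMIs against 11465 in cluster 0. After each nucleus was thinned to 5000 UMIs, which left out 18 shallower nuclei of cluster 0 and 41 of the others, C1ql3 and Nptxr each had a UMI in 72.7% of cluster 0 nuclei (65.0% to 79.6%). Col12a1 had one in 41.6% (33.7% to 49.8%), Fam20a in 35.7%, Itga8 in 29.9% and Slc30a3 in 27.9%. Before thinning the shares were 91.3% for C1ql3, 89.0% for Nptxr, 51.2% for Col12a1, 57.6% for Fam20a, 54.1% for Itga8 and 39.5% for Slc30a3. In the thinned nuclei of other clusters Nptxr had a UMI in 18.5%, and the other 6 markers in 0.264% to 3.17%. Only 3 nuclei of cluster 0 had no UMI of any marker, and these held 823, 1396 and 2452 UMIs.

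Beyond the given markers, 172 of 9111 genes with at least 100 UMIs were at least 2-fold higher in cluster 0 in every library (1.89%), and 266 were at least 2-fold lower (2.92%). Of these, 90 were also at least 2-fold above the highest other cluster (0.988% of genes) and 69 at least 2-fold below the lowest (0.757%). The 7 markers and 8 other genes made up the 15 highest of the 90. Akr1b8, an aldo-keto reductase, stood at 90.4, 49.2 and 35.1 CPM in mothers, virgin females and virgin males against 4.44, 2.17 and 0.668 in other neurons. Unc5b, a netrin receptor, was at 57.2, 58.4 and 51.1 CPM against 6.41, 5.96 and 2.67. Car8, a carbonic anhydrase relative without enzyme activity, was at 43.7, 33.2 and 46.3 against 1.97, 4.88 and 4.68, and the lipid phosphatase gene Plpp3 at 60.3, 50.4 and 65.4 against 8.88, 5.42 and 5.35. Levels in cluster 0 and in other neurons did not overlap for any of these, which follows largely from how they were chosen. The noncoding gene Gm19303 (137, 133 and 84.6 CPM), the exchange factor gene Arhgef26 (40.7, 43.5 and 63.8) and the receptor genes Oprk1 and Galr1, taken up with the other receptors, complete the 15.

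Several of the 15 lowest of the 69 had their highest level in cluster 1. Dpf3, a chromatin remodelling subunit, had 1 UMI in the 172 nuclei and stood at 67.1, 106 and 64.2 CPM in other neurons of mothers, virgin females and virgin males. Mme, the membrane peptidase neprilysin, had 0 UMIs in cluster 0, which with a floor of 3 UMIs over the group puts it at least 29.0-fold lower than in the other neurons, and it stood at 112 CPM in cluster 1. Scube1 had 1 UMI, as did Tnc, the matrix protein tenascin C, and Cabp1, a calcium-binding regulator of calcium channels, and Bcan, the perineuronal proteoglycan brevican, had 3 each, against 49.8 to 86.7 CPM for Cabp1 and 68.2 to 77.0 CPM for Bcan in other neurons.

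Other genes of the 15 had more UMIs in cluster 0 and were below each other cluster. Esrrg, an orphan nuclear receptor, was at 6.03, 20.6 and 11.2 CPM in mothers, virgin females and virgin males against 315, 462 and 361, and its lowest level in another cluster was 109.8 CPM in cluster 3. Sox5, a SoxD factor, was at 13.6, 11.4 and 6.38 CPM against 293, 177 and 317. Fras1, a basement membrane protein, was at 13.6, 2.29 and 9.58 against 287, 184 and 285, and Ebf1 at 3.01, 6.87 and 7.98 against 128, 191 and 135. Cdh20, a classical cadherin, was at 3.01, 4.58 and 0 CPM against 75.0, 59.1 and 74.2. That these genes were low in cluster 0 in every library, with no overlap with the other neurons, follows largely from how they were chosen. Gm36388 lies within Esrrg and Sox5os4 within Sox5, both on the opposite strand, and since the sources used here do not say whether counting used strand, their UMIs cannot be told apart from those of the larger gene. 6330411D24Rik, at 21.1, 3.43 and 1.60 CPM against 126, 217 and 134, and Nrp1, taken up with the guidance genes, complete the 15.

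The authors labelled every cluster 0 nucleus as lateral habenula, and 0 as medial habenula. The marker levels were mixed against that label. All 5 pan-neuronal markers were present (summed level 3192 CPM). Of 6 lateral habenula markers, Pou4f1, the habenular POU factor, had 0 UMIs in cluster 0, where the floor of 3 UMIs stands at 1.39 CPM. It stood at 27.9 CPM in cluster 1, 7.73 in cluster 4 and 0 in clusters 2 and 3. Chrm3, a muscarinic receptor gene, was at 107 CPM in cluster 0 against 291 to 992 in the other clusters, while Gap43 was at 231 against 138 to 225, Htr2c at 403 against 245 to 728 and Pcdh10 at 147 against 133 to 307. Gpr151 was at 11.6 CPM in cluster 0 and 14.8 in cluster 1. The summed level of the 6 was 899 CPM in cluster 0, below the 1116 to 1893 CPM of the other clusters.

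All 6 thalamic markers had UMIs in cluster 0, but Prkcd, Lef1 and Plekhg1 were below clusters 2 and 3. The 6 on the list summed to 7089 CPM, between the 1454 and 2053 CPM of clusters 4 and 1 and the 8266 and 10641 CPM of clusters 2 and 3. Most of it was Ntng1, a membrane-anchored netrin relative, at 4061, 4244 and 4273 CPM in mothers, virgin females and virgin males, and Rora, a nuclear receptor, at 2428, 2562 and 2230. Prkcd, the protein kinase C delta gene of relay thalamus, was by contrast at 21.1, 12.6 and 6.38 CPM, against 189 in cluster 2 and 536 in cluster 3. Lef1 and Plekhg1 stood at 234 and 213 CPM in cluster 0, below clusters 2 and 3 (582 and 727, 799 and 726) and above clusters 1 and 4 (16.7 to 40.5, 24.5 to 26.2). Levels of Lef1, Plekhg1 and Prkcd in cluster 0 thus lay between these pairs of clusters.

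Of the genes listed for the paraventricular thalamus, Drd2, Drd3 and Esr1 were at least 2-fold higher in cluster 0 in every library and also have a place in other lists. Drd2 stood at 25.6, 40.1 and 41.5 CPM against 8.38, 5.42 and 10.0, Drd3 at 18.1, 9.16 and 17.6 against 2.47, 2.71 and 0, and Esr1, the estrogen receptor alpha gene, at 40.7, 37.8 and 43.1 against 6.41, 5.96 and 10.0. Calb2 was at 70.8, 83.6 and 99.0 against 45.9, 47.2 and 42.1 and did not reach 2-fold in every library. Npffr1 and Hcrtr1 were near the floor in cluster 0, at 1.39 and 0.924 CPM, and Npffr1 was highest in cluster 4 (36.1 CPM). Among lateral habenula markers, Pou4f1 had 0 UMIs in cluster 0 and the others were present. The 6 thalamic markers all had UMIs there, but Prkcd, Lef1 and Plekhg1 were below clusters 2 and 3. With markers so mixed, the nuclei are called here by their cluster number.

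Markers of most other cells summed to little, apart from those of oligodendrocytes and microglia. The 3 GABAergic markers summed to 5.08 CPM in cluster 0, the 7 medial habenula markers to 2.77 with Tac2, Chat and Slc18a3 at 0, the 5 cortical or hippocampal markers to 1.39 with Neurod6, Tbr1 and Emx1 at 0, and the 4 astrocyte markers to 2.31. The 4 oligodendrocyte markers summed to 52.7 CPM, of which Mbp made up 37.9, against 24.9 to 46.4 in the other clusters. In the libraries the oligodendrocyte sum was 51.2, 60.7 and 43.1 CPM in mothers, virgin females and virgin males. The 4 microglia markers summed to 115 CPM (248 UMIs), against 86.0 to 143 in the other clusters, and to 124, 89.3 and 140.5 CPM in the 3 libraries. Of these UMIs P2ry12 gave 205 and Cx3cr1 41, while Csf1r had 2 and C1qa 0. The part of such RNA in the results was not tested.

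Among 26 measured members of the list of neuropeptide receptors (which holds the ligand gene Gal as well), 7 were at least 2-fold higher in every library and 5 lower. At the minimum of 20 UMIs used for lists, 2.26% of 14010 genes were so called higher and 3.55% lower. The counts of each list below stand beside these same shares. The list's median log2 ratio was 0.63, against -0.04 over all genes. Oprk1, the kappa opioid receptor, stood at 58.7, 35.5 and 54.3 CPM in mothers, virgin females and virgin males against 5.42, 1.08 and 1.34, with 6.84 CPM in cluster 1 as the next highest cluster. Galr1, a galanin receptor, was at 48.2, 45.8 and 43.1 CPM against 6.41, 3.79 and 4.68, and Gal itself at 4.52, 12.6 and 3.19 against 1.48, 0.542 and 0. Levels of both receptors did not overlap with those of other neurons, which follows largely from their choice among the 15 highest genes. Oprk1 was lowest in virgin females.

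Lower sums lay behind the other called receptors. Prokr2, a prokineticin receptor, was at 19.6, 17.2 and 25.5 CPM against 9.37, 6.50 and 12.7, but cluster 4 held more of it (33.5 CPM pooled, against 20.3 in cluster 0). Npy2r (12.9 CPM pooled), Nmur2 (12.5) and Tacr3 (10.2) were also higher. On the other side, Crhr1, a corticotropin-releasing hormone receptor, and Gpr139, an orphan receptor enriched in the habenula, had 1 UMI each in cluster 0. They stood at 30.2 and 16.0 CPM in cluster 1 and 23.2 and 50.2 in cluster 4. Tacr1 was at 2.77 CPM against 63.1 in cluster 4, Npy1r at 0.924 and Npy5r at 1.39. Oprm1, the mu opioid receptor, was higher without reaching 2-fold in every library, at 253, 285 and 223 CPM against 99.1, 107 and 130.3.

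Monoamine and acetylcholine receptors were split, with 4 of 21 called higher and 4 lower. Hrh1, the H1 histamine receptor, stood at 42.2, 43.5 and 65.4 CPM in mothers, virgin females and virgin males against 6.90, 4.34 and 6.68, and the serotonin receptor Htr7 at 218, 166 and 188 against 79.9, 69.9 and 60.1. Drd2 and Drd3 were the other higher members. Htr4 had 1, 0 and 1 UMI in cluster 0, or 1.51, 0 and 1.60 CPM, against 37.0, 59.6 and 38.1 CPM, and Htr2a was at 1.51, 4.58 and 0 against 10.4, 19.5 and 25.4. Chrm3 and Adrb1 were the other lower members, Chrm3 at 91.9, 109.9 and 118 CPM against 501, 537 and 783. Htr2c, a serotonin receptor abundant in habenula, did not differ by 2-fold (342, 490.0 and 348 CPM against 304, 539 and 609).

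**Figure D2:**
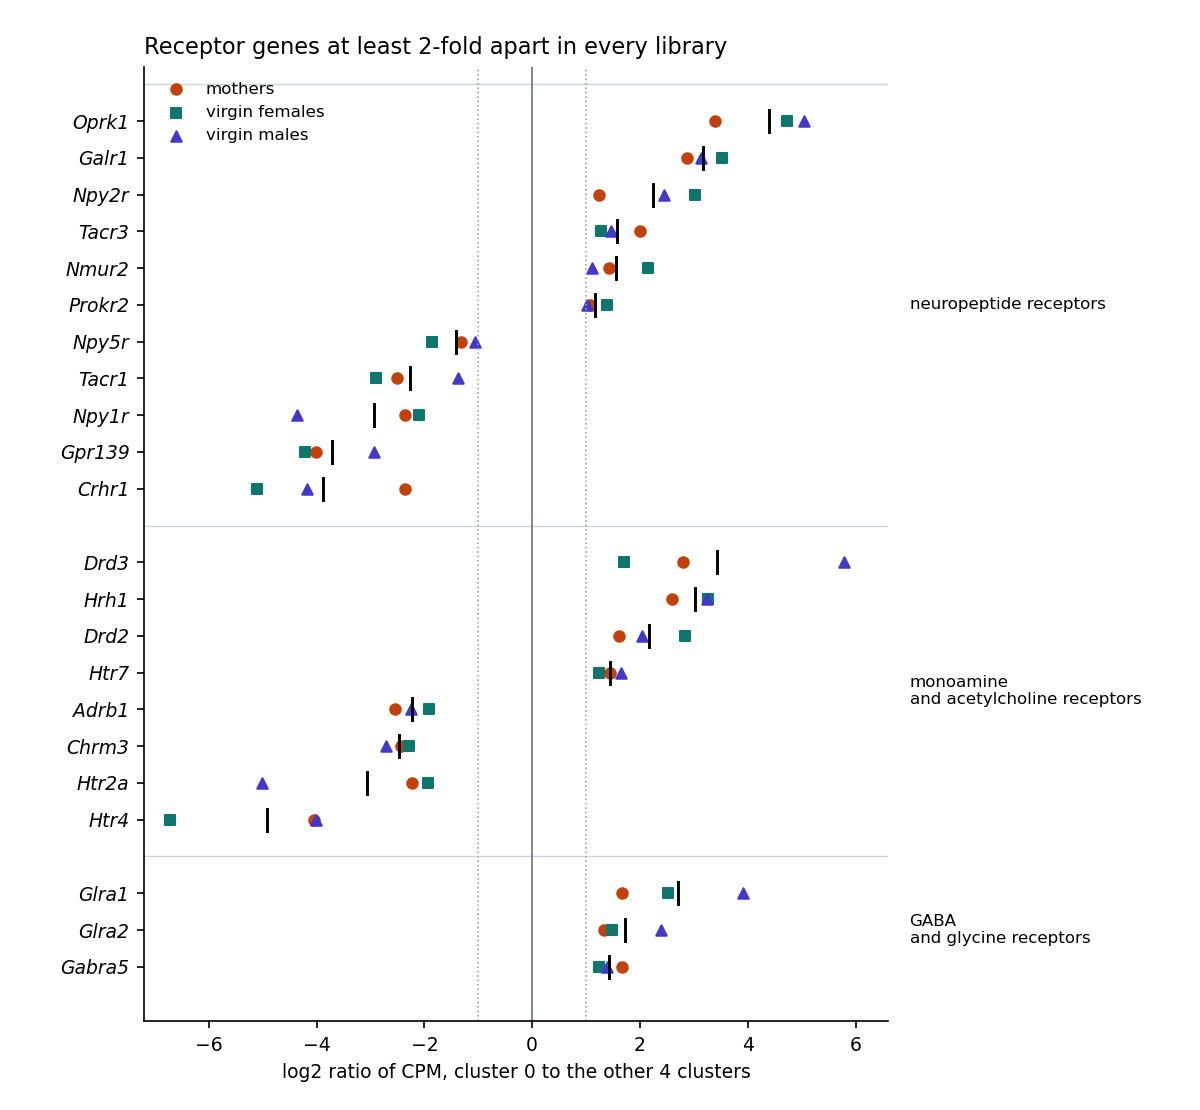
Log2 ratio of CPM in cluster 0 to the other 4 clusters for the genes of 3 receptor lists that are at least 2-fold apart in every library. Symbols are libraries, black ticks are means of the 3, solid and dotted vertical lines mark no difference and 2-fold. Oprk1, Galr1, Drd3, Hrh1 and Glra1 reach means of 2.71 or more, and Crhr1 and Htr4 lie at -3.88 and -4.92, where ratios rest on 1 or 2 UMIs in cluster 0.

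Among inhibitory receptors, the alpha subunit genes of the glycine receptor were higher. Glra1 stood at 36.2, 79.0 and 44.7 CPM in mothers, virgin females and virgin males against 11.3, 13.6 and 2.67, and Glra2 at 69.3, 80.1 and 46.3 against 27.6, 28.7 and 8.69. Gabra5, a GABA-A subunit of extrasynaptic receptors, was at 79.8, 89.3 and 104 against 25.2, 37.9 and 39.4. These 3 of 18 measured members were called higher and 0 lower. Of 24 glutamate receptor genes, Grm8 (689.9, 638 and 560.3 CPM against 104, 106 and 131) and Grm2 were called higher and Gria3 (181, 175 and 176 against 524, 488 and 474) and Grin2c lower. Grm8 was above all other clusters, the highest of which was cluster 1 with 164 CPM.

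Potassium channel genes differed in a few members. Among 41 potassium channel genes and their partners, Kcnip1 (274, 269 and 343 against 51.8, 55.8 and 72.2), Kcnt2 (652, 654 and 528 against 170.1, 186 and 173) and Kcnq5 (939.9, 845 and 1109 against 373, 364 and 259) were called higher. Kcna1, Kcna2, Kcnh1, Kcnh8 and Kcnip3 were called lower, and Kcnh8 stood at 57.8 CPM in cluster 0 against 706 and 501 in clusters 1 and 4. Kcnq5 was as high in cluster 4 (1071 CPM, against 951 in cluster 0), so cluster 0 was not above every other cluster for it.

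Cluster 0 held the glutamate transporter gene of this region. Slc17a6, the vesicular glutamate transporter of thalamus and habenula, was at 414, 424 and 444 CPM against 319, 339 and 315, a difference below 2-fold. Slc17a7 was at 10.5, 1.14 and 4.79 CPM against 42.9, 17.9 and 28.7, and Gad2, an enzyme of GABA synthesis, at 0, 3.43 and 1.60 against 19.7, 25.5 and 15.4. Of 13 measured synapse organisers and partners, C1ql3 and Nptxr were higher and Cbln1, Cbln2, Nptx1 and Nrxn3 lower. Cbln2, a cerebellin, was at 3.01, 6.87 and 4.79 CPM against 41.4, 87.8 and 49.5. Nrxn3, a presynaptic neurexin, was at 643, 498 and 413 against 2454, 1693 and 2233. Ndst3, Gpc5 and Sdc2 joined Sulf1 as higher members of the heparan sulfate list, and Sulf2, the relative of Sulf1, was lower with 2 UMIs in cluster 0 (0.924 CPM against 46.8 in cluster 1).

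Matrix, adhesion and guidance genes had more members lower than higher, as had all genes (3.55% of 14010 lower and 2.26% higher). Of 39 measured collagens, integrins and matrix proteins, 4 were higher (Col12a1, Itga8, Col5a1 and Itgb8) and 9 lower, among them Col11a1 (3.01, 1.14 and 3.19 CPM against 49.8, 77.0 and 64.2) and Tnc. Of 24 cadherins and protocadherins, 1 was higher (Cdh7, at 159.7, 232 and 223 CPM against 78.9, 80.8 and 77.5) and 5 lower, with a median log2 ratio of -0.62. Of 49 guidance genes, 5 were higher (Unc5b, Sema5b, Sema3a, Efna5 and Sema6d) and 8 lower. Ephb1, an ephrin receptor, was at 4.52, 2.29 and 1.60 CPM against 152, 176 and 144, and Sema5b at 97.9, 92.7 and 92.6 against 12.3, 20.6 and 8.69. The semaphorin receptors Nrp1 and Nrp2 were both lower, at 4.16 and 8.78 CPM pooled, although cluster 3 held Nrp2 at 6.77 CPM. None of 45 trans-synaptic adhesion genes was called higher, and 4 were lower.

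Transcription factors followed the same split. Lhx2 (46.7, 50.4 and 62.3 CPM against 15.8, 12.5 and 10.7), Foxp2 (675, 685 and 841 against 273, 285 and 332) and Bcl11b were higher, 3 of 30 measured. Esrrg, Irx1, Irx2, Nr2f2, Nr4a2, Pou4f1, Sox5 and Sox6 were lower. Sox6 stood at 5.08 CPM in cluster 0 against 258 in cluster 1, and at 0.734 and 4.74 in clusters 2 and 3, so it was as low in those clusters. The list's median was 0.19.

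Immediate early genes, which neurons switch on after activity, had the highest median of the 21 lists (0.68), with 5 of 17 members higher and 1 lower. Bdnf, a neurotrophin, was at 139, 84.7 and 57.5 CPM in mothers, virgin females and virgin males against 23.7, 24.4 and 14.7. Fos was at 13.6, 44.7 and 31.9 against 2.96, 5.96 and 8.69, Fosl2 at 13.6, 13.7 and 9.58 against 1.97, 1.08 and 0.668, and Nr4a3 at 22.6, 38.9 and 28.7 against 4.93, 16.3 and 12.7. Fosb, at 1.51, 16.0 and 16.0 CPM, was the other higher member, and Nr4a2 the lower one. The order of the libraries differed between Bdnf, highest in mothers, and Fos, lowest in mothers. Homer1, Nr4a1, Per1 and Nptx2 did not reach 2-fold in every library, and 0 of 11 heat shock genes did.

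**Figure D3:**
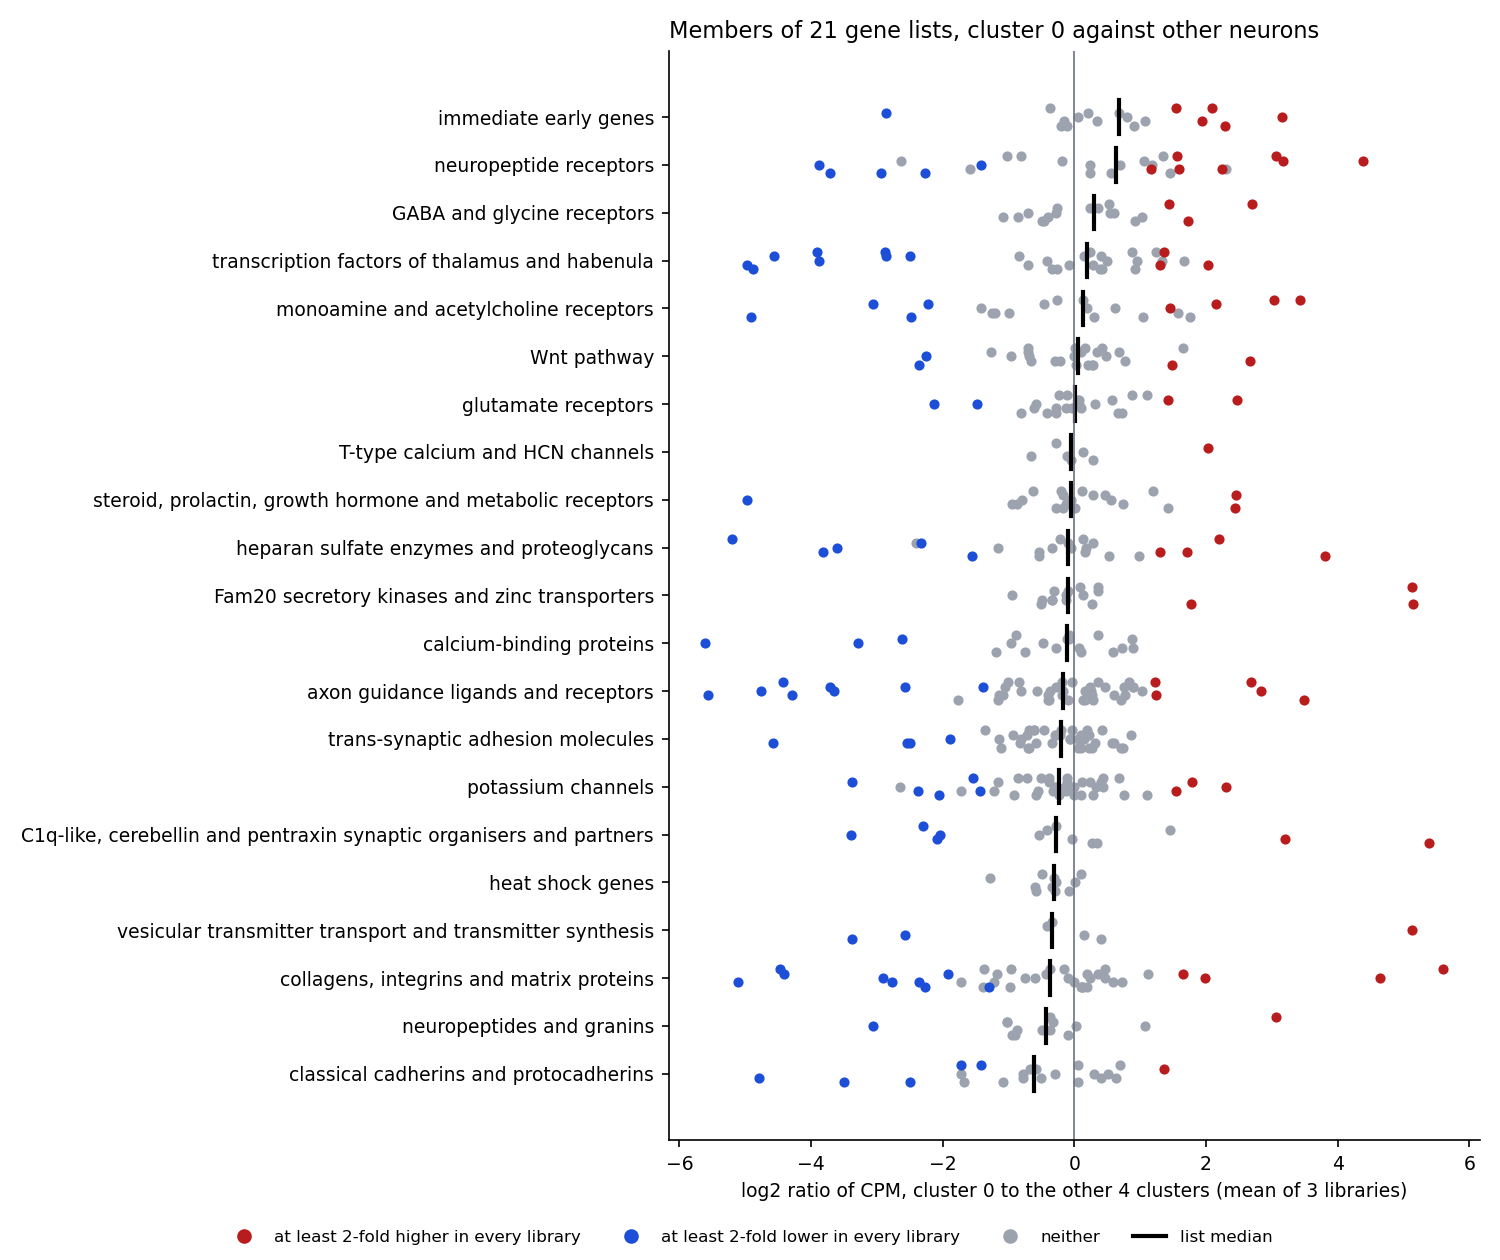
Each point is a member of 1 of 21 gene lists with at least 20 UMIs over neuronal nuclei, placed by its log2 ratio of CPM in cluster 0 to the other 4 clusters (mean of 3 libraries). Red and blue points are at least 2-fold higher or lower in every library, grey points neither, and black bars are list medians, from -0.62 for cadherins to 0.68 for immediate early genes.

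Cluster 0 was not uniform. In the first of the deposited habenular subtype schemes 149 of its nuclei carried the label lhb_3, 21 lhb_1, 1 lhb_2 and 1 lhb_4. In the second, 147 were LHb1, 22 LHb2 and 3 LHb4. Among the 420 nuclei of other clusters, 15 were labelled lhb_3. The 21 lhb_1 nuclei of cluster 0 were deeper, with a median of 19208 UMIs against 11085 in lhb_3 nuclei. They held a median marker sum of 5.55 per 10000 UMIs against 13.6, and a median sum of Lef1, Plekhg1 and Prkcd of 8.03 against 2.17. C1ql3 stood at 122 CPM in them against 346, Col12a1 at 60.9 against 170 and Kcnq5 at 448 against 1070, while Plekhg1 stood at 487 against 149 and Lef1 at 428 against 189. These levels lie between those of lhb_3 nuclei and of lhb_1 nuclei in other clusters (C1ql3 6.89 CPM, Col12a1 2.75), except for Plekhg1 (427 there) and Lef1 (374). That comparison pools lhb_1 nuclei of all 4 other clusters, which differ in both genes. Over libraries and labels, Lef1 stood at 462 to 767 CPM and Plekhg1 at 654 to 862 in clusters 2 and 3. In clusters 1 and 4 they stood at 5.24 to 65.3 and 5.51 to 39.6. No doublet caller was run, and the part of mixed droplets in these values was not tested.

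**Figure D4:**
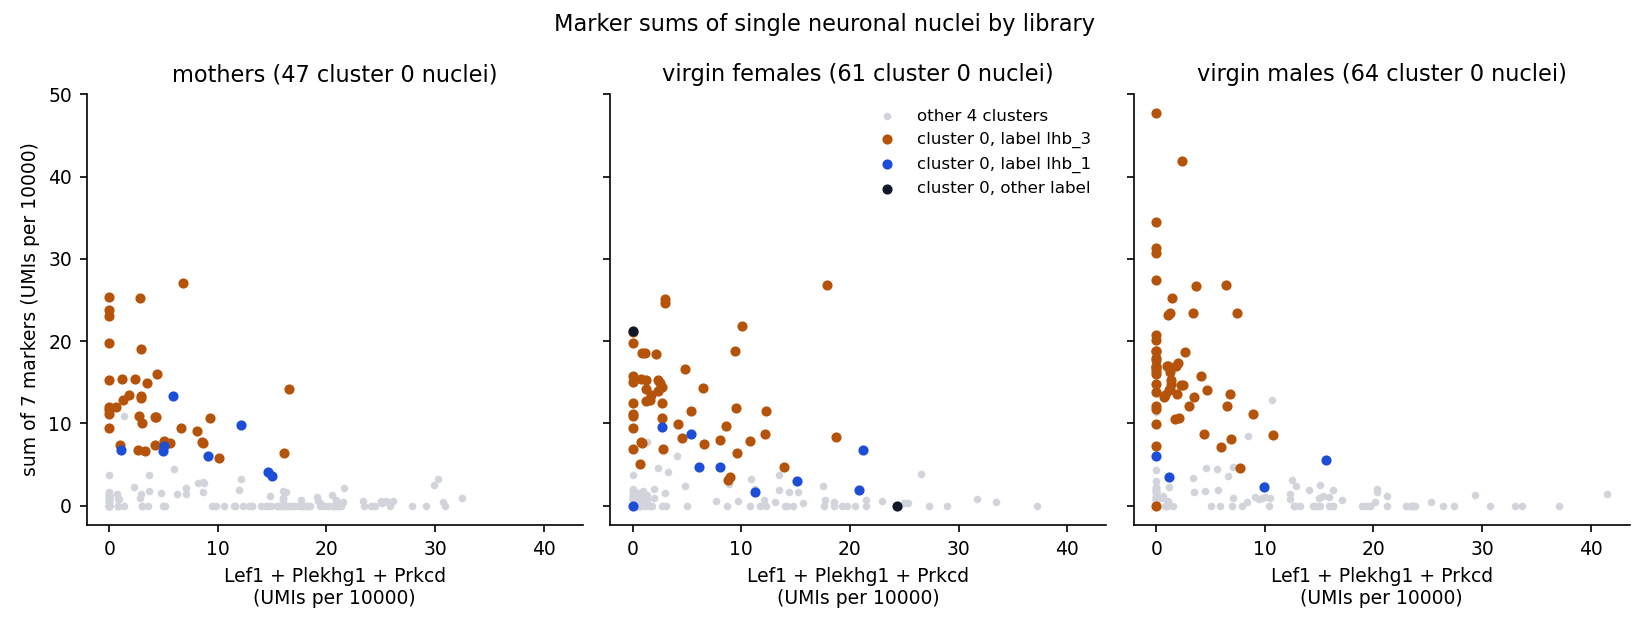
Each point is a neuronal nucleus, placed by its sum of Lef1, Plekhg1 and Prkcd (x axis) and of the 7 markers (y axis), both in UMIs per 10000. Orange nuclei of cluster 0 carry the label lhb_3, blue ones lhb_1 and black ones another label, and grey nuclei are of other clusters. The lhb_1 nuclei of cluster 0 have a median marker sum of 5.55, and 9 of 47 nuclei of mothers, 11 of 61 of virgin females and 24 of 64 of virgin males in cluster 0 have no UMI of the 3 genes on the x axis (40.9%, 31.5% and 48.2% after thinning).

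Among genes with a mean of at least 0.5 UMI in thinned nuclei, variation between cluster 0 nuclei was led by mitochondrial genes. The variance to mean ratio was 15.7 for mt-Co2 and 15.3 for mt-Atp6, against a median of 1.17 over 1927 genes. A single nucleus held 31.1% of the thinned mt-Co2 UMIs, and 4 nuclei of cluster 0 had over 1% of their UMIs in mitochondrial genes, 3 of them in virgin females. The nuclear RNA Malat1 (14.8), the potassium channel partner Kcnip4 (10.5), Gm42418 (9.67) and the teneurin Tenm2 (9.30) also had high ratios. So had the glypican Gpc5 (8.99) and Opcml (7.62). These genes varied with no such single nucleus, none holding over 5.15%. Malat1 and Kcnip4 were abundant, with means of 194 and 90.8 UMIs (medians 189 and 91), and the ratio was not adjusted for the mean. Gpc5 had a UMI in 84 of 154 thinned nuclei, with a highest count of 28. Opcml, an adhesion molecule, had means of 7.77, 10.9 and 5.04 UMIs in thinned nuclei of mothers, virgin females and virgin males, and Tenm2 10.3, 12.8 and 6.89.

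Virgin male nuclei of cluster 0 were set apart by a coarser clustering that the authors also deposited. There, 59 of the 64 formed a cluster of their own together with 1 other neuron, while 46 of 47 nuclei of mothers and all 61 of virgin females fell into a larger cluster with clusters 2 and 3. The remaining 5 male nuclei joined that larger cluster, and their median depth was 4477 UMIs. All 25 male nuclei of cluster 2 and all 39 of cluster 3 stayed with the females of their clusters. The sources used here do not say how the libraries were joined before clustering, and with 1 library per group sex and library cannot be told apart.

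Of the 7 markers, C1ql3, Itga8 and Sulf1 were at least 1.5-fold higher in virgin males than in virgin females and 0 lower. Over 7357 genes, 7.61% were so higher and 8.29% lower, and against both female libraries 2.99% and 2.69% of 6583. C1ql3 was 1.63-fold higher in virgin males than in virgin females (exact conditional 95% interval 1.36 to 1.96). At 262 CPM of C1ql3, mothers stood 1.03-fold to virgin females (0.84 to 1.26). Itga8 was level in mothers and virgin males (1.00-fold, 0.70 to 1.44). It was 1.52-fold higher in mothers than in virgin females (1.05 to 2.20), so it was lowest in virgin females. Sulf1 was 1.98-fold higher in virgin males than in virgin females (1.55 to 2.55). It had a UMI in 67.9% of thinned male nuclei (54.0% to 79.7%), against 29.5% (16.8% to 45.2%) in mothers and 31.5% (19.5% to 45.6%) in virgin females, and before thinning in 79.7%, 53.2% and 44.3%. Both female libraries held more nuclei without a UMI, 22 of 47 and 34 of 61 against 13 of 64, even though male nuclei were shallower. In the other clusters together Sulf1 was also higher in males (23.4 CPM against 8.13 in virgin females, 2.88-fold, 1.53 to 5.67). Cluster 1 gave 22 of the 35 male UMIs, at 47.7 CPM against 3.54 in virgin females. Cluster 2 held 21.3 CPM against 21.8. Clusters 3 and 4 gave 6 and 1 UMIs in males and 2 and 0 in virgin females. Ependymal or choroid markers summed to 496 CPM in male neurons of the other clusters, against 1.08 in virgin females. Pooled over libraries, cluster 1 held 738 UMIs of these markers (421 CPM), and clusters 2, 3 and 4 held 2, 6 and 3 UMIs. The part of such RNA in the Sulf1 levels was not tested.

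Other genes were lowest in virgin males, among them Plekhg1 and Lef1, which are high in clusters 2 and 3. Plekhg1 stood at 214, 285 and 112 CPM in cluster 0 of mothers, virgin females and virgin males, and was 0.39-fold in males against virgin females (0.30 to 0.51). Lef1 stood at 214, 307 and 155 CPM, and was 0.50-fold (0.40 to 0.64). Nr2f1, an orphan nuclear receptor, was at 72.3, 76.7 and 30.3 CPM, Hs3st5, a heparan sulfate sulfotransferase, at 184, 175 and 71.8, and Mtnr1a, a melatonin receptor, at 42.2, 42.4 and 14.4. In other neurons Plekhg1 was at 426, 383 and 438 CPM and Lef1 at 439.9, 279.7 and 362, but clusters 2 and 3 gave 58.2%, 43.7% and 57.0% of the UMIs summed there. Within cluster 2 Lef1 was at 682, 519 and 462 CPM and Plekhg1 at 751, 862 and 803. Within cluster 3 they were at 767, 734 and 684 and at 654, 811 and 743, so virgin males stood below virgin females in both clusters, with overlapping intervals. Hs3st5 was at 164, 219 and 198 CPM in other neurons. In males 6.25% of cluster 0 nuclei carried the lhb_1 label, against 17.0% in mothers and 14.8% in virgin females. Within lhb_3 nuclei alone the median sum of Lef1, Plekhg1 and Prkcd was 1.26 per 10000 UMIs in males, against 2.95 and 2.67, but male nuclei were shallower. At 5000 UMIs per nucleus the medians in lhb_3 nuclei were 1, 1 and 0.5 UMIs in mothers, virgin females and virgin males, and 16 of 36, 17 of 46 and 26 of 52 of them had none.

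**Figure D5:**
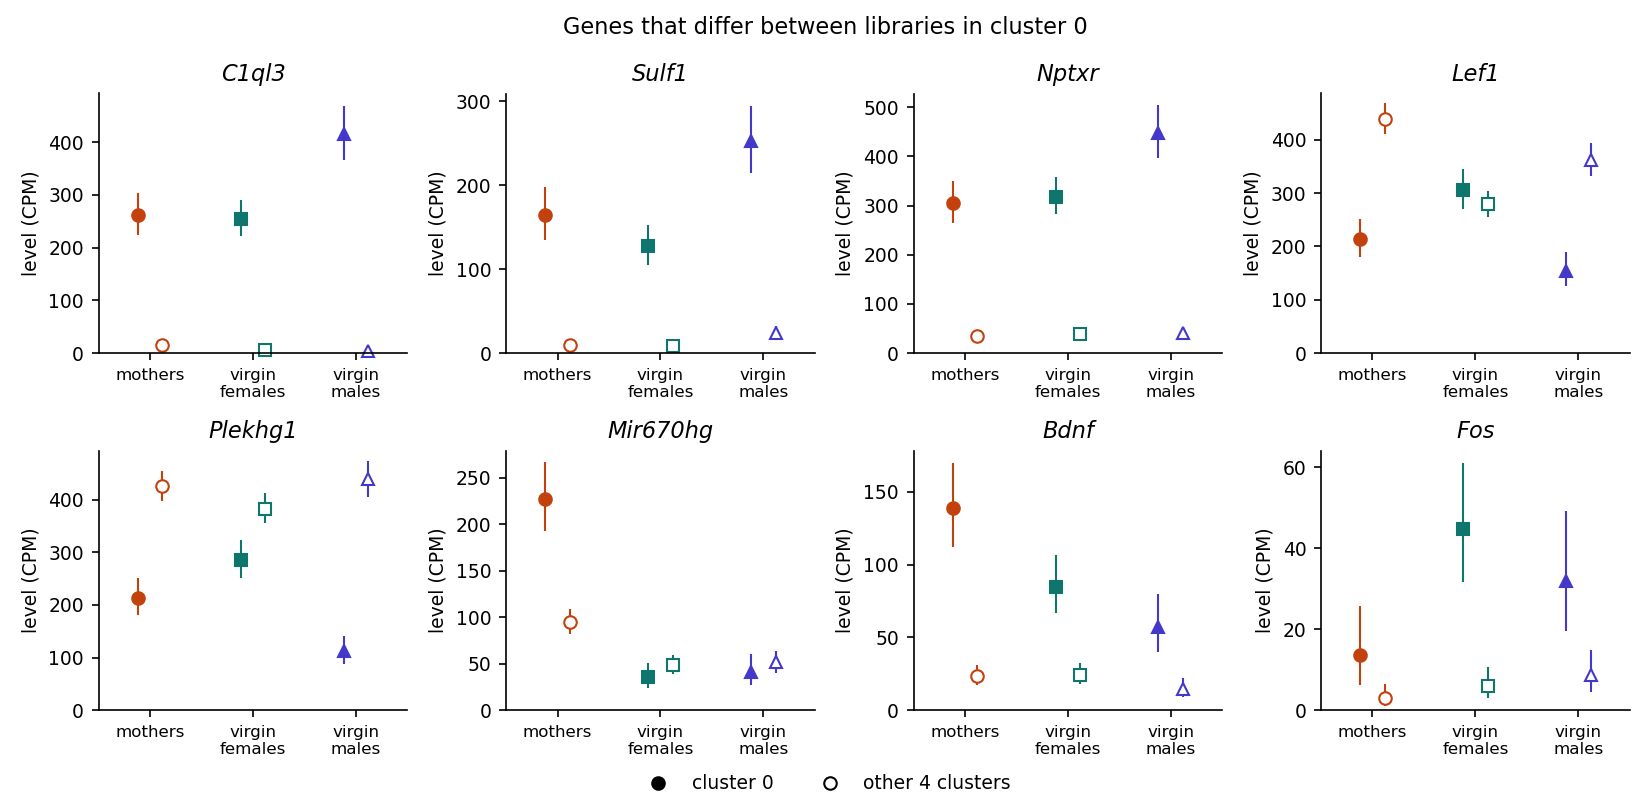
Levels (CPM, linear axis from 0) of 8 genes by library in cluster 0 (filled symbols) and in the other 4 clusters (open symbols), with exact 95% Poisson intervals. In cluster 0, virgin males are highest for C1ql3, Sulf1 and Nptxr and lowest for Lef1 and Plekhg1, and mothers are highest for Mir670hg (227 CPM) and Bdnf (139 CPM) and lowest for Fos (13.6 CPM).

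Mothers differed from both virgin libraries in a further set of genes. Mir670hg, a noncoding host gene of a microRNA, stood at 227, 35.5 and 41.5 CPM in cluster 0 of mothers, virgin females and virgin males. This was 6.41-fold (4.33 to 9.76) and 5.48-fold (3.60 to 8.66), while in other neurons it was 1.96-fold and 1.84-fold (94.7, 48.2 and 51.5 CPM). It had a UMI in 23 of 47, 14 of 61 and 10 of 64 nuclei, and the richest nucleus of all held 15.4% of its UMIs. Prdm8, a histone methyltransferase family member, was at 49.7, 26.3 and 14.4 CPM and in other neurons at 61.2, 21.1 and 23.4. Bdnf was 1.64-fold (1.19 to 2.25) and 2.41-fold (1.62 to 3.65) in mothers, with 23.7, 24.4 and 14.7 CPM in other neurons. Pparg, a lipid-sensing nuclear receptor, was at 45.2, 14.9 and 14.4 CPM, and in other neurons at 7.89, 9.21 and 6.68.

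Other genes of that set rested on few nuclei. Dqx1 had 38 UMIs in mothers and 0 in the virgin libraries, and 97.4% of them came from 1 nucleus. Tmco4 had 34 and 0, from 6 nuclei, 55.9% of them from 1. In other neurons Tmco4 was at 2.96, 0.542 and 32.7 CPM in mothers, virgin females and virgin males, so it was highest in virgin males there. Lower in mothers than in both virgin libraries were Gapdh (15.1, 50.4 and 43.1 CPM) and Ubb (19.6, 49.2 and 65.4). So were Pcsk1n (64.8, 131 and 161) and Cst3 (34.6, 93.9 and 63.8). Fos was called lower in mothers against virgin females only, at 0.30-fold (0.13 to 0.64) from 9 and 39 UMIs. Against virgin males, Fos had 9 and 20 UMIs, below the minimum of 30 for a pair, so no call was made. The mitochondrial gene mt-Co2 was at 78.3, 339 and 139 CPM in cluster 0, with 45.1% of its UMIs there in 1 nucleus. In other neurons mt-Co2 was at 334, 293 and 238 CPM, highest in mothers. The median percent of mitochondrial UMIs in cluster 0 was 0.0376, 0.0444 and 0.0796. The part of that difference in the other genes lower in mothers was not tested. Shares past 1.5-fold were 2.45% of 6604 genes higher and 2.97% lower in mothers against both virgin libraries. Against virgin females alone they were 6.64% and 8.97% of 7394 genes, and against virgin males 7.20% and 8.79% of 6710.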

How the data were processed

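The authors deposited raw UMI counts of 3 libraries and a metadata table with total counts, percent of mitochondrial UMIs, class labels and cluster numbers. Reads were processed with Cell Ranger 5.0.1 on GRCm38 (mm10), per the submitters' processing notes, and the metadata came from Seurat with SCTransform, per the file headers. The sources used here do not give filters on nuclei, doublet treatment or intron counting. Each group was 3 mice, with 1000 nuclei loaded per lane of the 10x 3′ assay, per the labels' protocols.

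Metadata were matched to counts by each nucleus's UMI total with its number of genes, which was unique for all 603 nuclei. No nuclei were clustered again and no doublet caller was run. UMIs were summed per library and cluster and scaled to CPM, and log2 ratios of cluster 0 to the other 4 clusters were taken within each library with 0.5 UMI added, then averaged. A call means at least 2-fold the same way in every library (at least 100 UMIs, or 20 for lists), or 1.5-fold between libraries (at least 30 UMIs in the pair). These calls are descriptions and no test was run. Shares were taken after thinning each nucleus to 5000 UMIs. The computations were checked on simulated data.

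The cluster, its markers and the 21 gene lists (592 genes, 2 not found in the table) were chosen with earlier results of these data known. Named were the markers, the 15 highest and 15 lowest genes also 2-fold beyond every other cluster, up to 6 called and 4 abundant members of each list, up to 8 genes each way per pair of libraries, genes called in mothers against both virgin libraries, the 10 most variable genes and cell type markers. Other list members and genes were named after their values were seen. Python 3.11.15, pandas 2.3.3, scipy 1.17.1 and edgeR 4.0.16 (scaling factors only) were used. Alternatives covered scaling, thinning, added UMIs, minimum UMIs, left-out nuclei and left-out libraries. Some results are not reported here.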

Additional observations from a re-analysis of the deposited data

How the results depend on the processing

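For the 101 genes named against other neurons, 1004 of 1111 alternative values moved by less than the spread over libraries and 0 changed sign from a called value, and 237 of 273 alternative list medians likewise stayed. Some list medians changed sign, by most for transmitter genes, monoamine receptors and steroid and metabolic receptors. The median of transmitter genes went from -0.33 to 0.24 after thinning, 0.15 with 2 UMIs added and 0.11 without virgin females. That of monoamine receptors went from 0.13 to -0.11 with equal weight for the clusters and -0.36 at a minimum of 100 UMIs. Steroid and metabolic receptors went from -0.06 to 0.11 without virgin females. The 172 genes higher and 266 lower became 281 and 439 when UMIs were summed over libraries first, 317 and 498 at a minimum of 20 UMIs and 1613 and 613 at a minimum of 1 UMI. Leaving out each library gave 196 to 226 higher and 317 to 349 lower.

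Between libraries, counts past 1.5-fold were larger at lower minimum UMIs, and are a description. Under thinning, a minimum of 10 UMIs and a minimum of 100 UMIs, 1097, 1297 and 77 genes were higher in mothers than in virgin females and 1252, 1524 and 111 lower. For mothers against virgin males these were 965, 1295 and 78 higher and 982, 1575 and 79 lower, and for virgin males against virgin females 1057, 1466 and 94 higher and 1175, 1419 and 114 lower. Plekhg1 in mothers against virgin females turned from -0.41 to 0.15 on the log2 scale under thinning, and Mir670hg went from 2.66 to 2.06 within lhb_3 nuclei. Of the 10 most variable genes, 6 remained without the richest nucleus of each gene. The cause of these shifts was not tested. No paired analysis was possible because each group has 1 library, whose replicate number is only a name.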
